A study of Mus musculus with 3 samples.

Results

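Serum response factor (SRF) and the genes around it were followed by name through the count tables of KO-actin cells. The 10 genes, of 46603 with a row in the tables, were Srf itself, the myocardin-related (MRTF) arm of Mrtfa (older symbol Mkl1), Mrtfb (older symbol Mkl2) and Myocd, the ternary complex factor (TCF) arm of Elk1, Elk3 and Elk4, and the targets Fos, Egr1 and Fhl2. They were chosen by symbol, and each symbol matched 1 Ensembl gene. The name KO-actin stands for embryonic fibroblasts of the mouse (MEFs) whose β-actin was knocked out. The protein was then supplied again in a form directed to the nucleus by a localization signal (NLS). Polyadenylated RNA was sequenced in 3 libraries, replicates 1 to 3, all of genotype β-actin KO with NLS-β-actin. Knockout and wild-type libraries were not analysed here, so no value is a change caused by actin. The labels do not say whether the libraries came from separate cultures or from 1 clone, nor which promoter drove the NLS-β-actin. Their spread, and every p-value computed from it, may therefore be technical.

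SRF is a MADS-box transcription factor that binds a short A/T-rich element, the CArG box, and is steered by 2 families of cofactors that compete for it. The MRTFs bind monomeric (G) actin through RPEL motifs; when actin polymerizes they are released, enter the nucleus and drive genes of the contractile and adhesion machinery. The TCFs are ETS-domain proteins that bind SRF and DNA together, are phosphorylated by ERK and drive immediate early genes. Nuclear actin bears on the MRTFs directly, since they bind it in the nucleus too. RNA counts measure the mRNA of these factors, and neither the place nor the activity of the proteins.

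Library totals were 44383636 to 49932446 counts. Counts were put on a common scale as CPM, each library's size being adjusted by the TMM method. The floor was 3 counts, which is as much as a count of 0 leaves possible, or 0.0601 to 0.0673 CPM by library, and genes with more counts are called above it. The floor and the intervals below cover counting error only. The label fibroblast was checked against 9 markers, of which 8 were above the floor in every library. Col1a1, Fn1 and Vim each had over 1000 CPM, Col3a1 had 268 CPM and Pdgfrb 125 CPM. Lower were Col1a2 with 21.0 CPM, Thy1 with 0.836 CPM and Dcn with 0.152 CPM, and Fap had 0, 0 and 1 counts. Replicate 2 stood apart from the others by the GC content of genes, as described with the spread between libraries.

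The promoter sequences show where the element that SRF reads occurs in this gene set. They are RefSeq sequences on GRCm38.p6, written 5′ to 3′ along the gene, and cover up to 250 bases before an annotated start, of which only bases outside annotated exons are printed. Of the 10 genes, 8 had an entry; Egr1 and Myocd did not. The CArG box was searched by its name's consensus, which reads the same on both strands. It was in the promoters of 2 of the 8 genes, Srf and Fhl2, against 1.62% of the 27025 genes in the table. Srf had 2 boxes, between 82 and 73 and between 62 and 53 bases before its start, and only 6 of the 32851 promoters in the table held 2 or more. Fhl2 had a box between 31 and 22 bases before an internal start, and a further box before its outer start that lies in an annotated exon and is not printed. A strict form of the ETS site, CCGGAAG on either strand, was in the promoters of Srf and Elk4, against 7.83% of genes. Shorter forms such as GGAA were not searched, and GGAA occurs in the Fos and Fhl2 promoters printed below too. The Srf promoter (chr17:46556176-46556412, minus strand) and the Fhl2 promoter (chr1:43163962-43164211, minus strand) are shown with the boxes in capitals. The Fos promoter (chr12:85473640-85473889, plus strand) is shown beside them because no box was found in this window; the well-studied serum response element of Fos lies further upstream.
Srf: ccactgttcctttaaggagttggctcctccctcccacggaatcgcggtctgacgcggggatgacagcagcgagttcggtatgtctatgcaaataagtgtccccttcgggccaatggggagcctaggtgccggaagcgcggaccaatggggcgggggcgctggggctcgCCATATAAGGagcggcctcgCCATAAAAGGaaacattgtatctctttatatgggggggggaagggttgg
Fhl2: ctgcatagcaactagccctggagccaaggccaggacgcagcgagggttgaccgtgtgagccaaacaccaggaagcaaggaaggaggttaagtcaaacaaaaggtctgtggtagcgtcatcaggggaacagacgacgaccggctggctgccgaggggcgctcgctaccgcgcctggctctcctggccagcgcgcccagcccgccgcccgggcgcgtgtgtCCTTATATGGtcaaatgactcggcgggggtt
Fos: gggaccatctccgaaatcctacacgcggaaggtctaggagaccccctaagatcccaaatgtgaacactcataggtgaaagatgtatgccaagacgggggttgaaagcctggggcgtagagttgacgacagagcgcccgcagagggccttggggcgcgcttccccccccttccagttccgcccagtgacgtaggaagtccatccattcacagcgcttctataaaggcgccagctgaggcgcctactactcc

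Among targets of the MRTFs in the contractile and adhesion machinery, 6 of the 19 genes with a promoter entry held a box, or 31.6%. The share over all genes was 1.62%. The list was made of genes known as targets of SRF, so its share is not independent support for that role. The windows of 30 bases around these boxes, with the box in capitals, are given for comparison with the Srf and Fhl2 boxes. Actg1 lies at chr11:120348566-120348595 (minus), Cnn2 at chr10:79988534-79988563 (plus), Vcl at chr14:20929161-20929190 (plus), Myl9 at chr2:156775293-156775322 (plus), Fhl1 at chrX:56779571-56779600 (plus) and Lima1 at chr15:99820177-99820206 (minus). Cnn2, Vcl and Lima1 had the same 10 letters. Of 19 immediate early genes with an entry, 2 held a box, Egr2 and Zfp36. Egr2 is shown with 2 boxes (chr10:67537484-67537513 and chr10:67537787-67537816, plus), which lie outside exons but inside the annotated gene, the first box before 1 RefSeq start and the second before 3 others. A box was found in 0 of 13 genes of the Ras and ERK relay to the TCFs. With a share of only 1.62% over all genes, this 0 does not set the relay apart. In the list of other MADS-box genes, SRF partners and Egr corepressors, 1 of 9 genes held a box, Hopx. These matches describe letters in a window and are not evidence of binding.
Actg1: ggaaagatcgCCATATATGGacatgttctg
Cnn2: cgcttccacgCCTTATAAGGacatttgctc
Vcl: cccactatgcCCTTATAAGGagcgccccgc
Myl9: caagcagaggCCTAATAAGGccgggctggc
Fhl1: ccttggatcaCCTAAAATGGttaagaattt
Lima1: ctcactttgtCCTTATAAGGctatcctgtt
Egr2, first box: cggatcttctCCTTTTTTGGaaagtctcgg
Egr2, second box: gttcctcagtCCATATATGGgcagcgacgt

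Srf was the most abundant of the 10 mRNAs per length, and each arm was carried mainly by 1 gene, Mrtfa for the MRTFs and Elk3 for the TCFs. Levels between genes were compared as CPM per kilobase of the union of annotated exons (GENCODE M21, GRCm38). The order was Srf, Fhl2, Mrtfa, Elk3, Egr1, Elk1, Mrtfb, Elk4, Fos and Myocd. Of the 9 pairs of neighbours, 8 did not overlap between libraries, and only Mrtfb and Elk4 did, at a ratio of 1.05. An exact two-sided sign-flip permutation test over libraries gave p = 0.25 for each of the other 8 pairs, which is the smallest that 3 libraries allow, and 0.281 after Benjamini-Hochberg adjustment over the 9 pairs. For Mrtfb against Elk4 it gave p = 0.5, by the same exact test, and 0.5 after adjustment. The pairs were formed by sorting the same values that were tested, so these p-values lend no support to the order. The order depends in part on the length used. Per kilobase of the longest coding sequence, Elk3 was above Mrtfa and Elk4 above Mrtfb, whereas the other 6 genes kept their places.

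**Figure D1:**
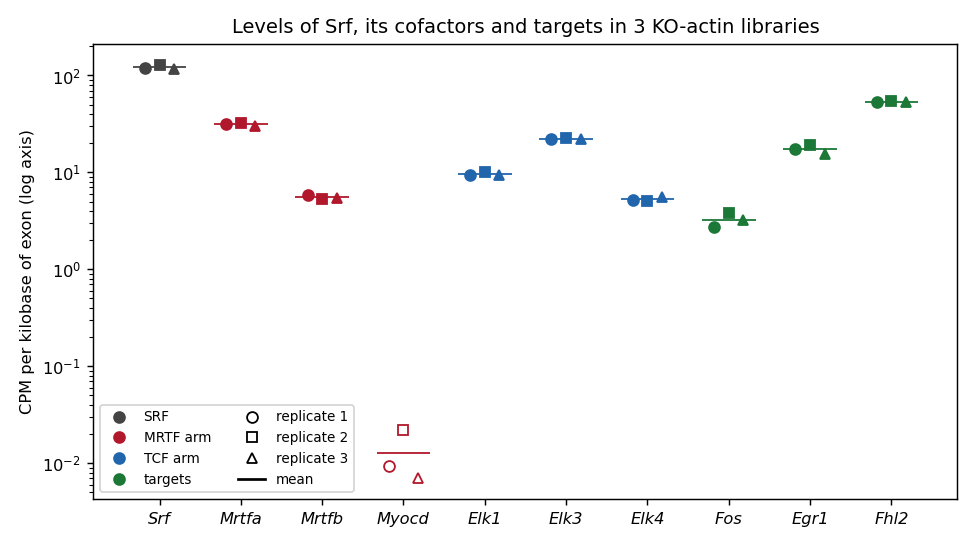
CPM per kilobase of exon on a log axis for each gene, with 1 point per library (circle, replicate 1; square, replicate 2; triangle, replicate 3), a line at the mean and colours for SRF, the 2 arms and the targets. Open points mark Myocd, which was above the floor in 1 library only; Srf lies highest at 122 and Fos lowest of the other 9 at 3.24.

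Srf (GRCm38 chromosome 17, 46548329 to 46556175, minus strand) had 17303, 18485 and 15043 counts in replicates 1, 2 and 3, or 347, 374 and 338 CPM. Replicate 2 was highest, and the mean was 353 ± 19.0 CPM (SD, n = 3). Per kilobase Srf had 122 ± 6.58 CPM (SD, n = 3), above 97.7% of the 15158 genes that exceeded the floor in every library and had a length. Srf was 2.27 times the next gene in the order, Fhl2, and 3.87 ± 0.107 times Mrtfa (SD, n = 3). No 50-base window of its mRNA occurs in another annotated gene.

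Mrtfa (chromosome 15, 81012281 to 81190757, minus strand), an actin-binding coactivator of SRF found in most cell types, had 195, 200 and 183 CPM. Replicate 3 was lowest, and the mean was 192 ± 8.65 CPM, or 31.5 ± 1.41 CPM per kilobase (SD, n = 3). Mrtfb (chromosome 16, 13256481 to 13417529, plus strand), its close relative with the same domains, had 53.0, 47.4 and 49.1 CPM. Here replicate 2 was lowest, against its place for Srf and Mrtfa. The mean of Mrtfb was 49.8 ± 2.88 CPM, or 5.54 ± 0.320 CPM per kilobase (SD, n = 3). Per kilobase Mrtfa was 5.69 ± 0.434 times Mrtfb (SD, n = 3) and higher in 3 of 3 libraries, and per kilobase of coding sequence it was 4.38 ± 0.334 times Mrtfb (SD, n = 3). Mrtfa made up 85.0% ± 0.920 of the summed level of the arm per kilobase and Mrtfb 15.0% ± 0.941 (SD, n = 3).

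Myocd (chromosome 11, 65176561 to 65269989, minus strand), the coactivator that defines cardiac and smooth muscle cells and that, unlike its relatives, is not held back by G-actin, was at the limit of detection. It had 3, 7 and 2 counts, or 0.0601, 0.142 and 0.0449 CPM. Only replicate 2 was above the floor, and without it the mean fell from 0.0822 to 0.0526 CPM. The exact Poisson 95% interval of replicate 2, from 0.0570 to 0.292 CPM, overlapped those of the other libraries. Over the 3 libraries Myocd held 12 of the 34933 counts of the arm, or 0.0344% (exact Clopper-Pearson 95% interval 0.0178% to 0.0600%). Of 4 smooth muscle markers, 3 were above the floor in every library, Lmod1 with 95.2 ± 1.81 CPM, Smtn with 92.6 ± 5.30 CPM and Des with 10.4 ± 0.888 CPM (SD, n = 3). The smooth muscle myosin Myh11 was not, with 3, 7 and 6 counts, and the summed level of the list was 193 to 207 CPM. In bulk RNA, fewer cells of a type and less RNA per cell cannot be told apart.

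Among the TCFs, Elk3 (chromosome 10, 93247414 to 93311135, minus strand), also known as Net and a repressor until it is phosphorylated, had 101, 103 and 100 CPM. The libraries differed little, with a mean of 102 ± 1.76 CPM or 22.3 ± 0.386 CPM per kilobase (SD, n = 3). The value is uncertain to a small extent, because 6.95% of its exonic bases overlap Cdk17 on the opposite strand. The strand setting of the counting is not given in the sources used here. Smaller shares overlap other genes on the opposite strand for Mrtfb (1.80%), Elk4 (1.31%) and Mrtfa (0.164%). On the same strand the overlap was 1.62% for Elk4 and 1.41% for Elk1. Elk1 (chromosome X, 20933395 to 20950608, minus strand), the ERK-responsive TCF that is best studied, had 50.6, 53.9 and 50.9 CPM. Its mean was 51.8 ± 1.80 CPM or 9.63 ± 0.335 CPM per kilobase (SD, n = 3). Elk4 (chromosome 1, 132007607 to 132032612, plus strand), also known as SAP-1, had 33.5, 32.1 and 36.1 CPM, with replicate 3 highest. Its mean was 33.9 ± 2.02 CPM or 5.29 ± 0.316 CPM per kilobase (SD, n = 3). Per kilobase Elk3 made up 59.9% ± 0.545 of the TCF arm, Elk1 25.8% ± 0.575 and Elk4 14.2% ± 0.963 (SD, n = 3). The order Elk3, Elk1, Elk4 was the same in every library and also per kilobase of coding sequence, at 55.4%, 27.0% and 17.6%.

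Set against each other, the arms came to the same summed level per kilobase of exon within the spread between libraries. The MRTF arm had 37.8, 37.9 and 35.4 CPM per kilobase in replicates 1, 2 and 3, and the TCF arm 36.9, 37.8 and 37.1. The MRTF arm was the higher in 2 of 3 libraries, and log2 of MRTF over TCF was -0.01 ± 0.05 (SD, n = 3). Which arm is higher was set by the length used, however. In CPM without division by length the MRTF arm had 242 ± 9.02 and the TCF arm 187 ± 2.11 (SD, n = 3), a log2 ratio of 0.37 ± 0.06 (SD, n = 3). Per kilobase of the longest coding transcript the log2 ratio was 0.10 ± 0.06 (SD, n = 3). Per kilobase of coding sequence it was -0.87 ± 0.06 (SD, n = 3), with the MRTF arm at 54.8% ± 2.11 of the TCF arm and lower in 3 of 3 libraries. The longest coding sequence of Mrtfa has 2892 bases and that of Elk3 1227 bases, while their exons span 6114 and 4550 bases. These data therefore give no order of the 2 arms that holds under all 4 scales. Relative to Srf, the MRTF arm stood at 30.4% ± 1.12 and the TCF arm at 30.6% ± 1.30 per kilobase of exon (SD, n = 3), and all 6 cofactors together at 61.0% ± 2.13 (SD, n = 3). These shares depend on the length too. Per kilobase of coding sequence Srf had 233 ± 12.6 CPM, the MRTF arm 81.8 ± 3.09 and the TCF arm 149 ± 1.69 (SD, n = 3).

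**Figure D2:**
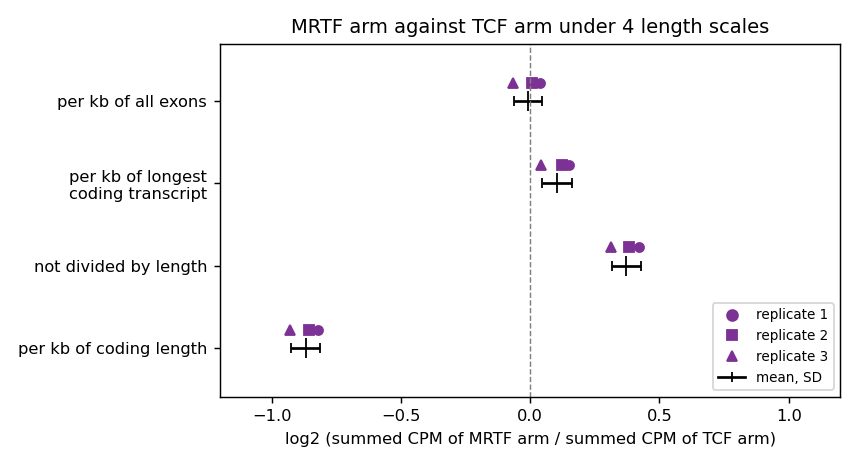
Log2 of the summed CPM of the MRTF arm over that of the TCF arm in each library (points) under 4 length scales, with the mean and SD in black; the dashed line marks equal arms. The mean lies at -0.01 per kilobase of all exons, 0.10 per kilobase of the longest coding transcript, 0.37 undivided and -0.87 per kilobase of coding length.

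The 3 targets spanned more than an order of magnitude per length, with Fhl2 highest and Fos lowest. Fhl2 (chromosome 1, 43123074 to 43196984, minus strand), a LIM-only protein that binds SRF and is a target of the MRTF route, had 102, 103 and 101 CPM. The libraries lay close together at 102 ± 1.34 CPM, or 53.7 ± 0.706 CPM per kilobase (SD, n = 3), above 93.2% of genes. Egr1 (chromosome 18, 34859823 to 34864984, plus strand), a zinc-finger immediate early gene and a classical TCF target, had 78.9, 86.4 and 69.8 CPM. Replicate 2 was highest and replicate 3 lowest, with a mean of 78.4 ± 8.30 CPM or 17.5 ± 1.85 CPM per kilobase (SD, n = 3). Fos (chromosome 12, 85473890 to 85477273, plus strand), a subunit of the AP-1 factor and the gene in which the serum response element was described, had 320, 439 and 338 counts, or 6.41, 8.89 and 7.59 CPM. Replicate 2 was again highest, with a mean of 7.63 ± 1.24 CPM or 3.24 ± 0.527 CPM per kilobase (SD, n = 3). Fos thus lay above 43.1% of genes, and Egr1 was 5.46 ± 0.875 times Fos per kilobase (SD, n = 3) and 7.42 ± 1.19 times per kilobase of coding sequence (SD, n = 3).

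Within its own family Fos was a minor member and Egr1 the main one. Per kilobase Fos made up 4.09% ± 0.682 of the summed level of Fos, Fosb, Fosl1 and Fosl2 (SD, n = 3). Fosl1, the Fra-1 subunit of AP-1, made up 72.8% ± 1.45 and Fosl2, the Fra-2 subunit, 22.4% ± 0.994 (SD, n = 3). Per kilobase of coding sequence Fos made up 2.03%, Fosl1 43.6% and Fosl2 53.3%, so the order of Fosl1 and Fosl2 depends on the length and the low place of Fos does not. The Jun family, the partners of Fos proteins in AP-1, had 3.13 ± 0.378 times the summed level of the Fos family per kilobase (SD, n = 3), and 1.59 ± 0.179 times per kilobase of coding sequence (SD, n = 3). Egr1 made up 90.2% ± 1.40 of the 4 Egr genes (SD, n = 3), while Egr4 had 2, 1 and 8 counts. Among the LIM-only genes Fhl1 made up 49.8%, Fhl3 26.8% and Fhl2 23.4%; per kilobase of coding sequence Fhl3 was 0.979 ± 0.0145 times Fhl2 (SD, n = 3), so these last 2 have no settled order.

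**Figure D3:**
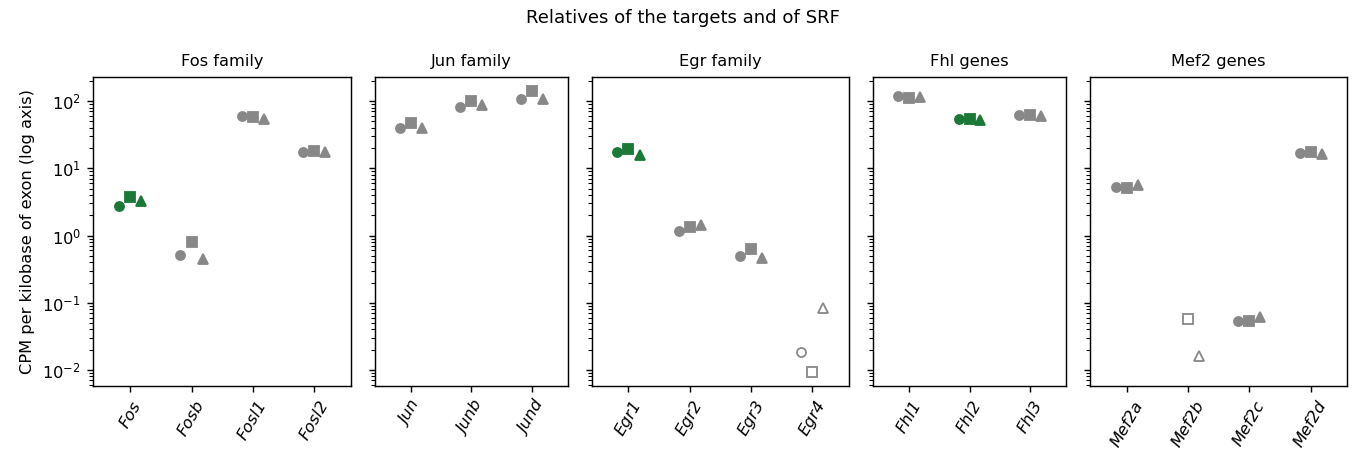
CPM per kilobase of exon on a log axis for the Fos, Jun, Egr, Fhl and Mef2 genes, with 1 point per library (circle, replicate 1; square, replicate 2; triangle, replicate 3); the targets among the 10 genes are green and their relatives grey. Open points are genes above the floor in fewer than 3 libraries, and counts of 0 are not drawn; Fos at 3.24 lies below Fosl1 at 57.8 and Fosl2 at 17.7, and Egr1 at 17.5 above Egr2 at 1.32.

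The libraries differed beyond counting error for 6 of the 9 genes that could be tested. Each gene was tested by a chi-square of its 3 counts against the library sizes, with Benjamini-Hochberg adjustment over 13814 genes and a threshold of 0.05. Of those 13814 genes 43.8% varied, and the share rises with the level, from 47.4% at 10 to 100 CPM to 74.7% at 100 to 1000 CPM. The 6 of 9, or 66.7%, lies between these shares, and the 9 genes fall in both ranges of level apart from Fos. The test compares libraries of 1 condition and not conditions. Fos had the widest range, with its highest library at 1.39 times its lowest (adjusted p = 0.000234, chi-square test). Egr1 followed at 1.24 times (adjusted p = 5.43e-17, chi-square test). For Srf the range was only 1.11 times, but at its depth this was far beyond counting error (adjusted p = 2.05e-20, chi-square test). Mrtfa at 1.09 times, Mrtfb at 1.12 times and Elk4 at 1.12 times also varied. Elk1 at 1.06 times, Elk3 at 1.03 times and Fhl2 at 1.03 times did not pass the test (adjusted p = 0.0921, 0.334 and 0.534, chi-square test). A range above 1.5 times together with a passed test was found in 3.8% of genes and in 0 of the 9. Without replicate 2 the count fell to 2 of 9, Mrtfa and Egr1, against 12.5% of all genes, and it was 4 without replicate 1 or without replicate 3, against 32.9% and 34.1%.

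**Figure D4:**
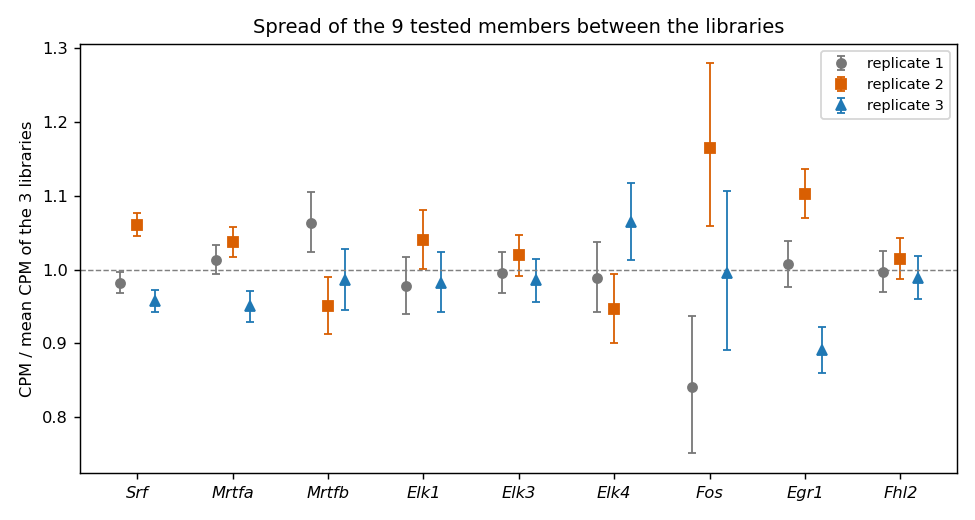
CPM of each library over the mean CPM of the 3 libraries for the 9 tested genes; bars are exact Poisson 95% intervals of each count, and the dashed line marks the mean. Replicate 2 (orange squares) lies below the mean for Mrtfb and Elk4 and above it for every other gene. The intervals of all libraries overlap for Elk1, Elk3 and Fhl2.

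Replicate 2 deviated with the GC content of the exons across all genes, and part of the spread of these 10 genes moved with it. Its CPM over the mean of replicates 1 and 3 was ordered over 10 equal groups of genes by GC content, with a median of 0.908 in the lowest group and 1.10 in the highest. Srf, with a GC content of 63.4%, was 1.09 times the mean of the others in replicate 2, and 0.962 times when library sizes were set within 50 bins of GC content. For Mrtfa, with 57.1%, the ratio went from 1.06 to 0.988. Egr1, with 57.3%, kept a ratio of 1.09 of its 1.16. Fos, with 52.0%, kept 1.24 of its 1.27, and Mrtfb, with 49.8%, stayed at 0.921 against 0.928. Elk1, with 47.5%, went from 1.06 to 1.08, and Elk4, with 47.9%, from 0.922 to 0.942. In these bins 29.8% of genes varied and again 6 of the 9, with Elk1 in place of Elk4. What made replicate 2 differ was not tested.

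**Figure D5:**
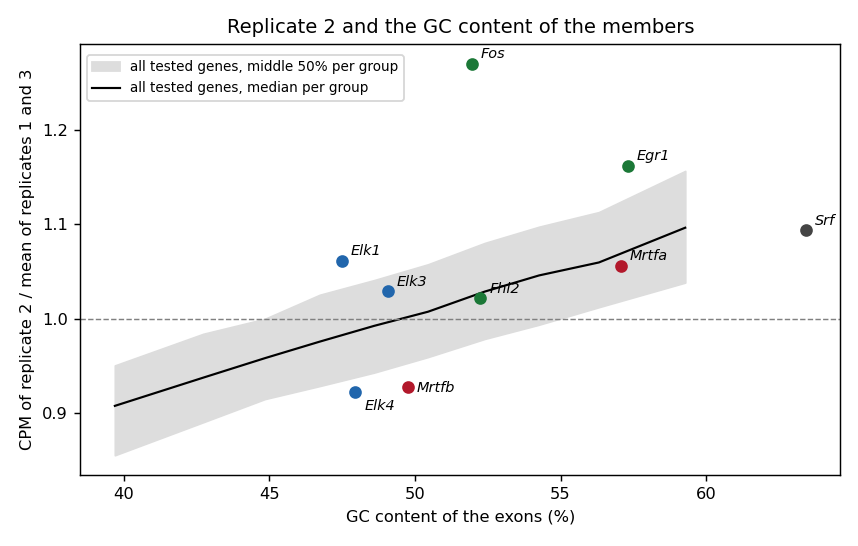
CPM of replicate 2 over the mean of replicates 1 and 3 against the GC content of the exons, for the 9 tested genes (points, coloured grey for SRF, red for the MRTF arm, blue for the TCF arm and green for targets) and for all tested genes (line, median of each of 10 groups by GC; band, middle 50%). Srf and Mrtfa lie in the high-GC range where the median of all genes is also above 1. Fos at 1.27, Egr1 at 1.16 and Elk1 at 1.06 lie above the band, and Mrtfb at 0.928 and Elk4 at 0.922 below it.

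The downstream genes of the MRTF arm were mostly abundant mRNAs in these cells. Of 25 targets in the contractile and adhesion machinery, 25 were above the floor, and their median of 276 CPM per kilobase compares with 4.74 over all genes above the floor in every library. The highest per kilobase were Acta2, the smooth muscle α-actin, with 6606 ± 73.1 CPM (SD, n = 3), Actg1, cytoplasmic γ-actin, with 4965 ± 231 CPM (SD, n = 3), and Myl9, a myosin regulatory light chain, with 840 ± 39.5 CPM (SD, n = 3). Actg1 is uncertain because it has pseudogenes of near-identical sequence. The lowest were the focal adhesion protein Vcl, with 61.8 CPM per kilobase, the LIM protein Pdlim7 with 56.7, and the adhesion protein Tgfb1i1, the lowest of all, with 143, 141 and 135 CPM undivided. The list includes Actb, the gene knocked out in these cells. Its 1085 ± 23.2 CPM (SD, n = 3) can come from the NLS-β-actin construct, whose promoter is not given. Where these counts come from was not tested, and they are not read here as a response to SRF. Between libraries 20 of 25 varied. Apart from Actg2 the targets lie above 100 CPM, where 74.7% of all genes varied at 100 to 1000 CPM and 94.0% at 1000 to 10000 CPM, so the count does not set them apart. Without replicate 2 the count was 14, against 12.5% of all genes at any level, and the ranges were narrow, with a median of highest over lowest of 1.05.

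The immediate early genes were lower and more uneven than the listed MRTF targets. The list was not limited to targets of the TCFs, so the output of the arms is not compared here. Of 23 genes besides Fos and Egr1, 22 were above the floor, with a median of 21.4 CPM per kilobase. Jund, Mcl1 and Junb were highest at 117, 90.6 and 88.6 CPM per kilobase. Egr3 had 0.533 CPM per kilobase, and the nuclear receptor gene Nr4a3 had 24, 16 and 18 counts. Fosb had 3.18, 4.94 and 2.78 CPM, with replicate 2 highest and a range of 1.77 times (adjusted p = 3.15e-07, chi-square test), the same library in which Fos and Egr1 were highest. Of the 22 tested, 12 varied, against 43.8% of all tested genes. Replicate 2 was the highest library in 10 of these 12, against 44.0% of all genes that varied. That share is not matched for GC content, with which replicate 2 rose across all genes. The median GC content was 54.1% for the tested genes of this list and 49.5% for all tested genes. In bins of GC content 9 of the 22 varied, against 29.8% of all genes, and without replicate 2 the count was 2, against 12.5%.

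The Ras and ERK relay to the TCFs was above the floor for 20 of 20 genes, with a median of 10.9 CPM per kilobase. The kinase genes Map2k2 (MEK2) and Mapk3 (ERK1) were highest at 51.7 and 47.5 CPM per kilobase, followed by the phosphatase gene Dusp4, which switches ERK off, at 41.1. Braf had 2.93 and Mapk8 2.11 CPM per kilobase, and the ERK feedback inhibitor Spry4 was lowest at 0.382. Spry4 had 1.46, 2.35 and 1.64 CPM, with replicate 2 highest at 1.61 times the lowest library (adjusted p = 0.00843, chi-square test). Of the 20 genes 9 varied, near the 43.8% of all genes, and 2 without replicate 2, against 12.5%.

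Among other MADS-box genes, partners of SRF and corepressors of Egr1, 10 of 11 were above the floor, with a median of 13.6 CPM per kilobase. Fhl3, Nkx2-5 and Nab1, a corepressor of Egr proteins, were highest at 61.4, 51.1 and 31.3 CPM per kilobase. Nkx2-5, a homeodomain partner of SRF known from the heart, had 82.4, 101 and 80.5 CPM, a mean of 87.8 ± 11.1 (SD, n = 3). Gata4, the other cardiac partner, named here after its values were seen, had 42.5 ± 2.12 CPM (SD, n = 3). Of 6 markers of cardiac and skeletal muscle, 1 was above the floor in every library, Tnnt2 with 11.7 ± 0.274 CPM (SD, n = 3); Myh6, Myod1, Myog and Ckm had 0 counts in every library, and the summed level of the list was 11.4 to 12.0 CPM. The MADS-box genes Mef2b, with 0, 4 and 1 counts, and Mef2c, with 0.879 ± 0.0751 CPM (SD, n = 3), were lowest. Hopx, an inhibitor of SRF, had 0.741, 1.15 and 1.62 CPM and the widest range of the list at 2.18 times (adjusted p = 0.00165, chi-square test). Of the 10 tested genes 6 varied, against 43.8% of all genes, 4 in bins of GC content, against 29.8%, and 3 without replicate 2, against 12.5%.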

How the data were processed

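Polyadenylated RNA of 3 KO-actin libraries was measured. The authors deposited raw counts per Ensembl gene without normalization. The submitters' processing notes name Trimmomatic, FastQC, HISAT2 and HTSeq, and the builds mm10 and GRCm38; versions, strand setting and handling of reads with several matches are not given in the sources used here, which can shift genes with overlaps or near-identical copies. Symbols matched 46005 of 46603 identifiers. Coordinates, exon lengths and GC content came from GENCODE M21 on GRCm38, and promoters from RefSeq.

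TMM factors came from edgeR 4.0.16 (R 4.3.3) after a filter of 10 counts in each library; DESeq2 1.42.0 size factors were an alternative. The rest used scipy 1.17.1, pandas 2.3.3, numpy 2.4.6 and matplotlib 3.10.9 under Python 3.11.15. The chi-square test had 2 degrees of freedom. It was tried on Poisson counts simulated around the real means, which is the model the test assumes. That simulation lacked the GC trend of replicate 2 and so cannot show how the test behaves under it. With 1 condition, no conditions were compared. The 10 genes and the lists were chosen with earlier results of these data known. All 10 were named, and from each list the 3 highest and 3 lowest per kilobase and any gene ranging over 1.5 times with an adjusted p below the threshold; relatives of the targets, genes with a CArG box, Gata4 and cell type markers were named besides. Markers were fibroblast, smooth muscle, cardiac and skeletal muscle, blood (0 of 4 above the floor in every library, summed level 0.200 to 0.385 CPM) and epithelial (0 of 3, 0.0224 to 0.304 CPM). A further list upstream of the MRTFs is not reported here.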

Additional observations from a re-analysis of the deposited data

How the results depend on the processing

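Another scaling changed the levels of the 10 genes by at most 0.146%. Leaving out a replicate changed the level of Myocd from 0.0822 to 0.0526 CPM without replicate 2, and that of the other 9 genes by at most 1.09 times. The log2 ratio of the MRTF arm to the TCF arm, -0.01 as reported, was 0.37 without division by length, -0.87 per kilobase of the longest coding sequence and 0.10 per kilobase of the longest coding transcript; the last 2 were chosen after seeing the data. Leaving out each replicate gave -0.03 to 0.02. The number of varying genes among the 10 ranged from 2 to 4 on leaving out a replicate, and that among all genes from 1750 to 4807, against 6 and 6046; each is lowest without replicate 2, where 1 degree of freedom and 2 libraries remain. Without replicate 2 the lists gave 14 for MRTF targets, 2 for immediate early genes, 2 for the Ras and ERK relay and 3 for the MADS-box and partner genes. Size factors, total counts and count minimums of 1 or 100 left the same 6 genes. Coding length from RefSeq proteins was not run, and GENCODE coding sequence was used in its place. Depth limits Myocd, whose 2 to 7 counts a library cannot rank the libraries. No paired analysis was possible because all libraries belong to 1 condition.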
